A study of Mus musculus with 6 samples.

Results

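*Cartpt* encodes the precursor of CART (cocaine- and amphetamine-regulated transcript), a neuropeptide that is cut from its precursor in dense-core vesicles and released beside classical transmitters. In autonomic neurons such peptides accompany noradrenaline or acetylcholine, and combinations of peptides are used to tell apart neurons that serve different targets. CART is known from sympathetic preganglionic neurons and from subsets of ganglionic neurons. Here the expression of 1 gene, *Cartpt*, of the 32285 genes counted, was followed through neurons of 5 autonomic ganglia. The gene was taken because its level in these libraries was already known to be high in a class of pelvic cholinergic neurons, so that every level below is a description and no test was applied to it.

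The libraries were made from whole ganglia of transgenic mouse pups of both sexes at postnatal day 5, dissociated and passed through the droplet-based 10x Genomics platform. All groups share the same alleles, a Cre transgene and a tdTomato reporter at the *Rosa* locus that Cre turns on, and no sort on the reporter is given in the labels, so that glia and connective tissue cells were sampled too. A first sequencing round held 1 library each of the stellate ganglion (sympathetic, thoracic), the sphenopalatine ganglion (parasympathetic, cranial) and the pelvic ganglion (mixed cholinergic and noradrenergic), and a second round, with a later version of the chemistry, held 1 library each of the coeliac ganglion (sympathetic, abdominal), the lumbar sympathetic chain and again the pelvic ganglion. The pelvic ganglion was thus the only one with 2 libraries, called pelvic replicates 1 and 2 here, and whether a library came from 1 pup or several was not used here.

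After removal of droplets with too few genes or too much mitochondrial RNA, 21442 droplets remained, between 1427 (coeliac) and 7219 (stellate) per library. Total molecule counts (unique molecular identifiers, UMIs) per library ran from 39353313 (coeliac) to 113352559 (stellate). Neurons, chosen by *Stmn2*, *Stmn3*, *Gap43* and *Tubb3* and by low glial markers, numbered 2724 in the stellate, 1903 in the sphenopalatine, 893 and 365 in the pelvic, 237 in the coeliac and 930 in the lumbar libraries. The median neuron held 26651 (stellate) to 39381 (pelvic replicate 1) UMIs in the first round and 56713 (coeliac) to 108598 (pelvic replicate 2) in the second, so folds between ganglia were taken only within a round. In the neurons of each library the summed level of 4 markers each of fibroblasts (21.8 to 83.4 CPM), endothelial cells (5.17 to 11.2 CPM), macrophages (1.73 to 8.43 CPM) and mural cells (6.12 to 64.5 CPM) was low beside that of the 4 neuronal markers (11002 to 16173 CPM). At most 49 cell barcodes were shared by any pair of libraries.

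The gene lies on the minus strand of chromosome 13 (ENSMUSG00000021647, chr13:99898489-99901091, GRCm38, the build also called mm10), and 0 other annotated genes overlap it. GENCODE M21 lists 2 transcripts of 3 exons each, *Cartpt-201* and *Cartpt-202*, with 387 and 348 coding bases. They differ in coding sequence by 39 bases, or 13 codons, at the start of exon 2 (chr13:99900041-99900079), the stretch that separates the long from the short form of the CART precursor in rodents. It is shown because the counts cannot separate the forms: both share the last exon (chr13:99898489-99899026), next to which 3′ tag libraries are read, so each level below is the sum of both.
*Cartpt-201* segment: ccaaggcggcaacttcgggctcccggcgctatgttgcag

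The promoter window of RefSeq (GRCm38.p6, 250 bases before to 50 bases after the annotated start) holds a full cAMP response element, the site bound by CREB-family factors. It begins at position −112 relative to the RefSeq start (chr13:99900778-99900805, minus strand, element in capitals), inside the annotated first exon of the longer *Cartpt-202*.
*Cartpt* promoter: cggcgggcatTGACGTCAaacggcagcg
The element TGACGTCA reads the same on both strands, and 549 of 27025 genes with such a window (2.03%) hold it. Among the other peptide genes followed here that reached 10 CPM (UMIs per 1000000 UMIs) in any library, 15 had a window and only *Sst* held the element. It is printed as a description of the gene and says nothing of its use in these neurons.

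*Cartpt* was highest in the pelvic ganglion, in both libraries. Its summed level over all neurons was 916 CPM (*Cartpt* UMIs per 1000000 UMIs of the group, 95% exact Poisson interval 906 to 925) in pelvic replicate 1 and 922 (912 to 932) in pelvic replicate 2, a mean of 919 ± 4.37 (SD, n = 2). The intervals of these libraries, made in different rounds, overlapped.

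Every other ganglion was lower. Stellate neurons held 149 CPM (146 to 152), sphenopalatine neurons 24.6 CPM (23.5 to 25.7), coeliac neurons 14.9 CPM (13.2 to 16.8) and lumbar neurons 10.1 CPM (9.37 to 10.9). Within the first round, pelvic replicate 1 exceeded the stellate library 6.15-fold and the sphenopalatine library 37.3-fold. Within the second, pelvic replicate 2 exceeded the coeliac library 61.8-fold and the lumbar library 91.4-fold. Without the highest 1% of neurons the stellate level was 67.1 CPM, and the pelvic mean 785. As a mean over neurons the coeliac level was 25.7 CPM and the lumbar level 15.7. The coeliac and lumbar ganglia were closest to each other, 1.48-fold apart (1.28 to 1.70). These intervals, and all others below, cover counting error only, and with 1 library per ganglion outside the pelvis there is no replicate check on the order of the ganglia.

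**Figure D1:**
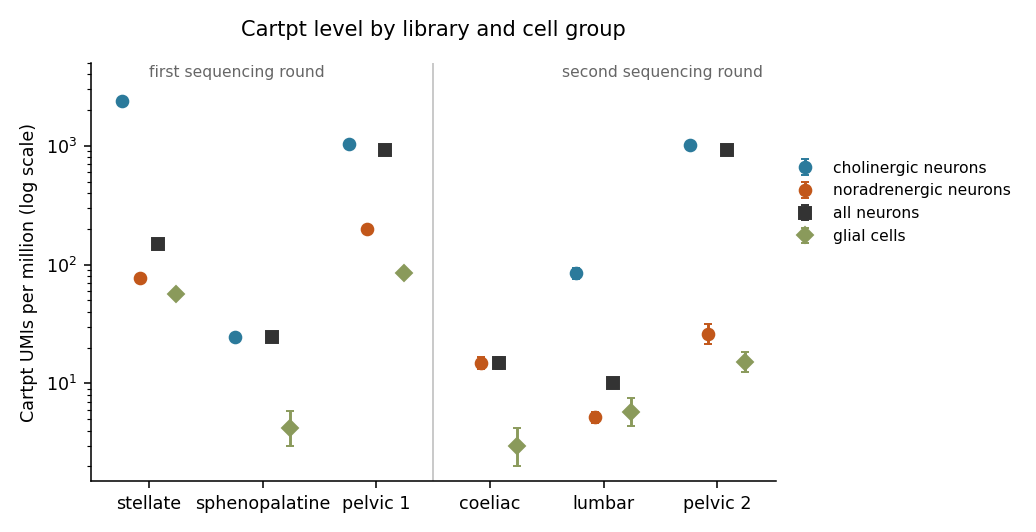
*Cartpt* in each library (vertical axis, CPM on a log scale), summed over cholinergic neurons, noradrenergic neurons, all neurons and glial cells, with 95% exact Poisson intervals. Both pelvic libraries sit at 916 and 922 for all neurons, stellate cholinergic neurons stand highest at 2377, and glial levels are lowest except in the lumbar library, where they lie at 5.76 beside 5.21 in noradrenergic neurons.

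The pelvic level came from a minority of very rich neurons. At least 1 *Cartpt* UMI was found in 71.6% and 77.5% of pelvic neurons (replicates 1 and 2), in 40.0% of stellate, 28.6% of sphenopalatine, 21.5% of coeliac and 13.3% of lumbar neurons. When each neuron was thinned to 4000 UMIs, so that depth no longer differed, these shares fell to 40.5%, 44.4%, 11.9%, 7.55%, 5.17% and 3.15% in the same order. The median neuron held 51.9 and 92.1 CPM in the pelvic libraries and 0 in the other 4, whereas the richest neuron reached 15528 CPM in pelvic replicate 1 and 12065 CPM in pelvic replicate 2, with up to 1399 and 1786 *Cartpt* UMIs in 1 neuron.

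Neurons with 500 CPM or more were therefore called *Cartpt*-rich, and the others *Cartpt*-poor. Rich neurons made up 26.4% (236 neurons) and 31.2% (114 neurons) of the pelvic libraries, a mean of 28.8% ± 3.40 (SD, n = 2), and held 94.6% and 94.7% of all neuronal *Cartpt* UMIs there. In the stellate ganglion 96 neurons were rich (3.52%), and these held 80.4% of the neuronal UMIs. The sphenopalatine, coeliac and lumbar libraries had only 11 (0.578%), 3 (1.27%) and 8 (0.860%) rich neurons, holding 19.5%, 31.0% and 31.1% of their neuronal *Cartpt* UMIs.

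The 500 CPM limit cuts a continuous range rather than a gap. Between 250 and 1000 CPM, 50 rich and 48 poor cholinergic neurons of pelvic replicate 1 lay on either side of it, and 35 and 28 in pelvic replicate 2. In the stellate ganglion 5 rich and 3 poor cholinergic, and 18 rich and 44 poor noradrenergic neurons, were as close. Rich neurons are thus a range of a level, cut at a chosen limit.

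**Figure D2:**
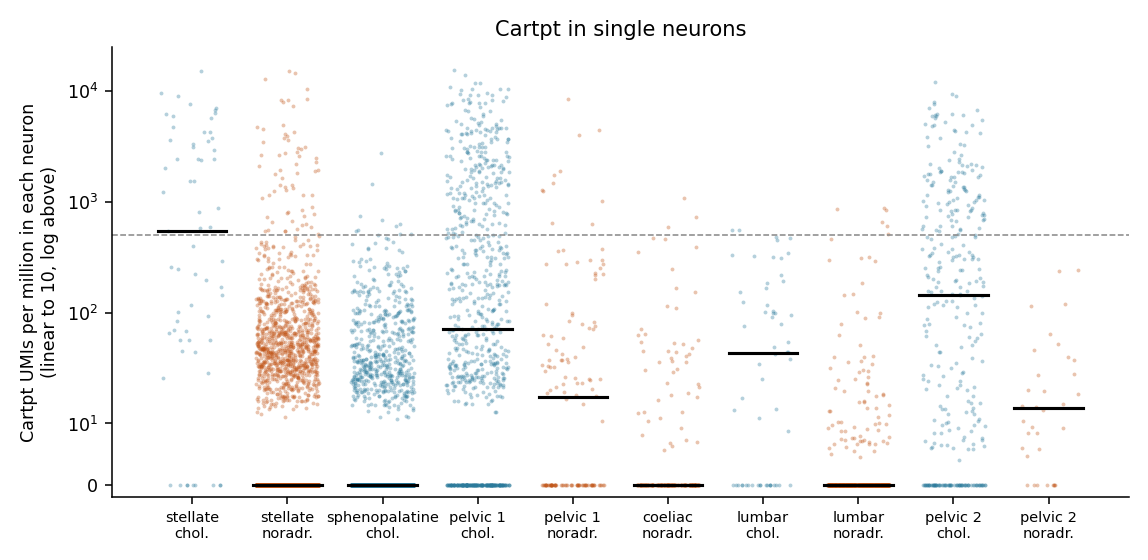
*Cartpt* in single neurons (vertical axis, CPM in each neuron, linear up to 10 and logarithmic above), by library and transmitter class (chol., cholinergic; noradr., noradrenergic). Each point is 1 neuron, the bar is the median, and the dashed line marks the 500 limit. Pelvic cholinergic neurons fill the range from 0 to 15528, whereas most stellate noradrenergic neurons lie at 0 or below 200 with a thin column of very rich neurons above.

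The shares of neurons with a UMI must be read beside those of glia, in which the gene is not expected. Glial droplets may hold free RNA, but its amount was not estimated here. Thinned to 2000 UMIs, 31.5% and 39.7% of pelvic neurons had *Cartpt*, beside 10.5% and 2.26% of glial cells of the same libraries. In the stellate library the shares were 7.64% of neurons and 9.28% of glia, so a UMI there was no more frequent in neurons than in glia. The sphenopalatine (3.47% and 0.637%), coeliac (2.53% and 0.126%) and lumbar (2.58% and 0.347%) neurons were above their glia.

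Summed glial levels differed widely between libraries. Glia held 84.5 CPM in pelvic replicate 1, 15.1 CPM in pelvic replicate 2, 56.2 CPM in the stellate, 4.23 CPM in the sphenopalatine, 2.99 CPM in the coeliac and 5.76 CPM in the lumbar library, 1 glial cell carrying 27 of the 56 UMIs behind the last value. Median glial cells were shallow, from 3522 UMIs (stellate) to 12151 (coeliac). In pelvic replicate 1 the glial level was 9.22% of the neuronal one, within the range of 11 other neuronal transmitter and peptide genes of at least 100 CPM (8.95 to 25.2%). In the stellate library it was 37.8%, above the 14.6 to 33.3% of 13 such genes, and in the lumbar library 57.1%, above the 2.77 to 16.6% of 12. In the other 3 libraries it lay within the range of such genes. Stellate noradrenergic neurons, at 77.1 CPM, lay above their own glia. Those that were *Cartpt*-poor held 28.9 CPM, but they were cut at 500 CPM. The glia were not cut, and 50 of them held 500 CPM or more, so these 2 values are not alike.

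*Cartpt* was higher in cholinergic than in noradrenergic neurons in each of the ganglia that held both classes in number, the pelvic, stellate and lumbar ones. Neurons were classed by the balance of *Th*, *Dbh* and *Slc6a2* (noradrenaline synthesis and uptake) against *Chat*, *Slc18a3* and *Slc5a7* (acetylcholine synthesis, vesicular loading and choline uptake). By this rule 85.0% and 90.7% of pelvic neurons, 2.31% of stellate, 6.24% of lumbar, and 99.9% of sphenopalatine neurons were cholinergic. The split lay on the noradrenergic side of an even balance. Summed noradrenergic against cholinergic markers were 1223 against 595 CPM in the stellate and 793 against 552 CPM in the lumbar cholinergic class. In pelvic cholinergic neurons they were 26.4 against 761 CPM and 16.3 against 962 CPM. The stellate and lumbar classes thus held both kinds of marker. Of 237 coeliac neurons 0 were cholinergic, leaving room for at most 1.27%.

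Pelvic cholinergic neurons held 1035 and 1024 CPM (759 and 331 neurons), a mean of 1030 ± 8.10 (SD, n = 2), with medians of 71.1 and 146 CPM per neuron. Of these, 225 (29.6%, 95% Wilson interval 26.5 to 33.0) and 114 (34.4%, 29.5 to 39.7) were *Cartpt*-rich. The summed level of this class therefore repeated closely across rounds, while its median neurons differed.

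Pelvic noradrenergic neurons did not repeat in their summed level. They held 198 CPM in replicate 1 (134 neurons) and 26.2 CPM in replicate 2 (34 neurons), a mean of 112 ± 121 (SD, n = 2), while their median neurons were close, at 17.2 and 13.7 CPM. The log2 ratio of cholinergic over noradrenergic *Cartpt* was 2.39 in replicate 1 and 5.29 in replicate 2, a mean of 3.84 ± 2.05, so that both libraries put cholinergic neurons higher but differed in how much. No test was applied to these ratios.

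Most of the gap between the noradrenergic values came from 11 rich neurons in replicate 1, which held 2123 CPM against 43.8 in the other 123 and 79.5% of the class's *Cartpt* UMIs. These 11 neurons kept noradrenergic marks, with *Th* at 452 CPM against 503 in the rest, *Dbh* at 1224 against 1076 and *Npy* (neuropeptide Y, the usual companion of noradrenaline) at 7095 against 7266. They also had more *Vip*, at 61.7 against 27.4 CPM, and more *Slc5a7*, at 69.4 against 14.8 CPM. Glia of this library held *Vip* at 154 CPM, above both values, and the 3 cholinergic markers at a summed 82.6 CPM. Among the other cholinergic markers *Slc18a3* was level, at 7.71 against 7.82 CPM, and *Chat* was low in both, at 2.57 against 0.617 CPM. Replicate 2 had 0 rich noradrenergic neurons of 34, which allows a share of up to 8.82%, so that a share like the 8.21% of replicate 1 lies within what this count allows. Thinned to 2000 UMIs, 13.4% and 5.88% of pelvic noradrenergic neurons had *Cartpt*, little above the 10.5% and 2.26% of pelvic glia.

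The few stellate neurons classed as cholinergic, which held more noradrenergic than cholinergic marker RNA, held the most *Cartpt* of the classes in the first round. Their 63 neurons stood at 2377 CPM (2317 to 2438) with a median of 550 CPM, and 32 of them (50.8%) were rich. The 2661 noradrenergic neurons of the same library held 77.1 CPM with a median of 0, and 64 (2.41%) were rich, so the classes were 30.8-fold apart. With 2.31% of the neurons, the cholinergic class carried 49.8% of the neuronal *Cartpt* UMIs. Stellate cholinergic neurons exceeded those of pelvic replicate 1, of the same round, 2.30-fold and sphenopalatine neurons 96.8-fold.

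In the stellate library 32 neurons lay within 1 log2 unit of the class boundary. Without them, a choice made after the data were seen, 39 cholinergic neurons held 2993 CPM (24 rich) and noradrenergic neurons 69.4 CPM. Without the highest doublet scores the values were 2519 and 78.3 CPM. The order of the classes was the same in each case.

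Lumbar cholinergic neurons were higher than their noradrenergic neighbours but far below the pelvic ones of the same round. Their 58 neurons held 84.5 CPM with a median of 43.3, and 65.5% had a UMI, while the 872 noradrenergic neurons held 5.21 CPM with a median of 0, a 16.2-fold difference. Only 2 lumbar cholinergic neurons were rich, and the highest reached 560 CPM. Lumbar cholinergic neurons lay 12.1-fold below the pelvic cholinergic neurons of the same round. Here 36 neurons lay near the class boundary.

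A cholinergic transmitter alone did not go with high *Cartpt*. Sphenopalatine cholinergic neurons, the parasympathetic class, held 24.5 CPM over 1901 neurons with a median of 0 and 11 rich, 42.2-fold less than those of pelvic replicate 1. Coeliac noradrenergic neurons held 14.9 CPM over 237 neurons with a median of 0 and 3 rich. Set side by side without regard to the round, the classes ran from stellate cholinergic (2377 CPM) through the pelvic cholinergic libraries (1035 and 1024), pelvic replicate 1 noradrenergic (198), lumbar cholinergic (84.5), stellate noradrenergic (77.1), pelvic replicate 2 noradrenergic (26.2), sphenopalatine cholinergic (24.5) and coeliac noradrenergic (14.9) to lumbar noradrenergic neurons (5.21). The 26.2 to 198 CPM between the pelvic noradrenergic libraries spans the lumbar cholinergic and stellate noradrenergic values, so the order of those 4 was within replicate spread.

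Within the pelvic ganglion most *Cartpt* lay in 1 group of neurons. Neurons of each pelvic library were clustered without *Cartpt* and without the other listed peptides, and clusters were called P1-like to P4-like by marker genes that the study had derived on these same samples. With coarse clusters (resolution 0.3), P1-like neurons held 2090 and 1655 CPM (356 and 195 neurons, mean 1872 ± 308), and 58.4% and 55.4% of them were rich. They held 88.1% and 94.7% of the rich pelvic neurons and 91.4% and 97.7% of the neuronal *Cartpt* UMIs.

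The other named groups were lower. P2-like neurons (253 and 102), which carry *Grp*, held 23.8 and 36.0 CPM. This lay below the 84.5 CPM of glia in replicate 1 and above the 15.1 CPM of glia in replicate 2. P3-like neurons (131 and 33), the noradrenergic group, held 203 and 26.0 CPM. P4-like neurons (74 and 35), which carry *Aldh1a2* and *Calca*, held 412 and 94.1 CPM. In P3-like and P4-like neurons replicate 1 was the higher library and in P2-like neurons replicate 2. In replicate 1 the P4-like cluster also had fibroblast genes (*Col1a1*, *Dcn*) among its leading genes. A further 79 neurons of replicate 1 with haemoglobin and glial genes in the lead stayed unnamed, at 129 CPM.

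**Figure D3:**
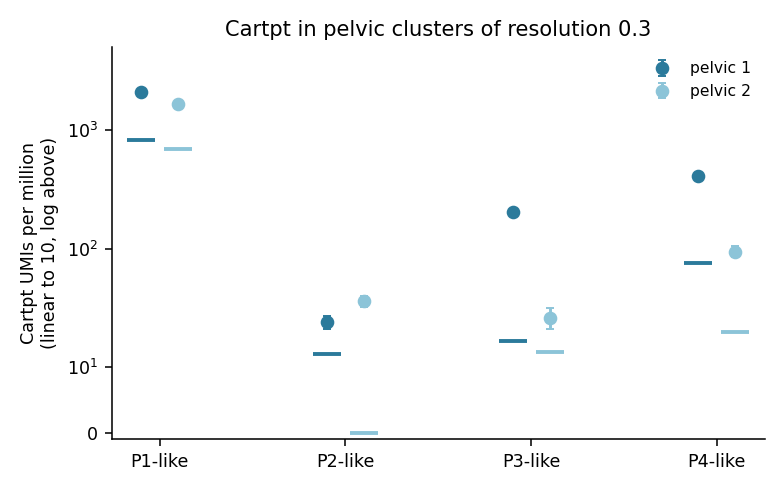
*Cartpt* in the named pelvic clusters of resolution 0.3 (vertical axis, CPM, linear up to 10 and logarithmic above). Circles are summed levels with 95% exact Poisson intervals and dashes are the median neuron, for both pelvic libraries. P1-like neurons stand at 2090 and 1655 with medians of 826 and 694, and the other groups lie at 412 or below.

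Finer clusters split the P1-like group by its *Cartpt* level, although the gene took no part in the clustering. At resolution 0.6 the clusters still named P1-like held 2210 and 1081 CPM (160 and 29 neurons, mean 1646 ± 798). Another pair of clusters, matched between libraries by 5 of 10 leading genes (*Nrn1*, *Wscd1*, *Areg*, *Gpc6* and *Cartpt* itself), held 4448 and 2904 CPM (82 and 99 neurons). Its *Cartpt* level is thus not independent of the matching. A further pair, matched by 6 of 10 leading genes including *Gng8*, *Thy1*, *Pcp4l1* and *Penk* (114 and 68 neurons), held 454 and 527 CPM. Both of these pairs carried too few P1 markers to be named.

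*Cartpt*-rich and *Cartpt*-poor neurons were next compared within the pelvic cholinergic class. A gene was counted as different where it was at least 2-fold apart, the same way, in both pelvic libraries, after adding 1 CPM, among 7851 genes of at least 10 CPM. That limit was taken over rich and poor neurons together, so a gene could pass it through a single group. By this rule 46 genes were higher in rich neurons (0.586%) and 80 were lower (1.02%), and the median log2 difference of all genes was −0.04. Rich and poor neurons were cut on *Cartpt* itself, so these counts describe which genes go with it and carry no test.

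The 10 genes that went with *Cartpt* most include transcriptional regulators. *Tlx3*, a homeobox factor, was at 38.7 against 4.51 CPM in replicate 1 and 39.8 against 4.84 CPM in replicate 2, log2 differences of 2.85 and 2.80. *Lmo1*, a LIM-only co-regulator, differed by 2.29 and 2.01, and *Eya1*, a transcriptional co-activator with phosphatase activity, by 1.83 and 1.94. *Tlx3* and *Lmo1* lay below 10 CPM in poor neurons of both libraries, and so passed the limit only through rich neurons.

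Secreted and surface proteins formed another part of these 10. *Areg* (amphiregulin, a ligand of the epidermal growth factor receptor) showed the widest log2 difference, at 4.09 and 3.06, but at a low level, 47.5 and 59.4 CPM in rich neurons against 1.85 and 6.22 in poor ones. *Nrn1* (neuritin, a membrane-anchored growth protein) was at 357 against 48.8 CPM and 339 against 81.1 CPM, log2 differences of 2.85 and 2.05. *C1ql2*, a secreted synaptic organiser, differed by 2.09 and 2.16. The remaining genes were the calcium-binding *S100a6* (2.57 and 2.25) and *Tesc* (1.83 and 1.59), the potassium channel partner *Kcnip4* (1.79 and 1.89) and *Nwd2* (2.14 and 1.75). *Areg*, *C1ql2* and *Kcnip4*, too, lay below 10 CPM in poor neurons of both libraries and passed the limit only through rich neurons. Of the 10 genes, 8 had a RefSeq promoter window, and among these only *Areg* held the cAMP response element that *Cartpt* has.

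The genes that ran most opposite to *Cartpt* included leading genes of P2-like neurons. The 5 lowest were *Nccrp1* (−3.08 and −4.73), *Brinp1* (−3.14 and −3.07), the nucleotide-sugar transporter relatives *Slc35f4* (−3.15 and −2.97) and *Slc35d3* (−3.59 and −2.93), and *Grp* (gastrin-releasing peptide, −2.80 and −4.24). *Nccrp1*, *Slc35f4* and *Slc35d3* lay below 10 CPM in rich neurons of both libraries, and so passed the limit only through poor neurons. *Nccrp1*, *Slc35d3* and *Grp* were among the leading genes of the P2-like cluster in both libraries.

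**Figure D4:**
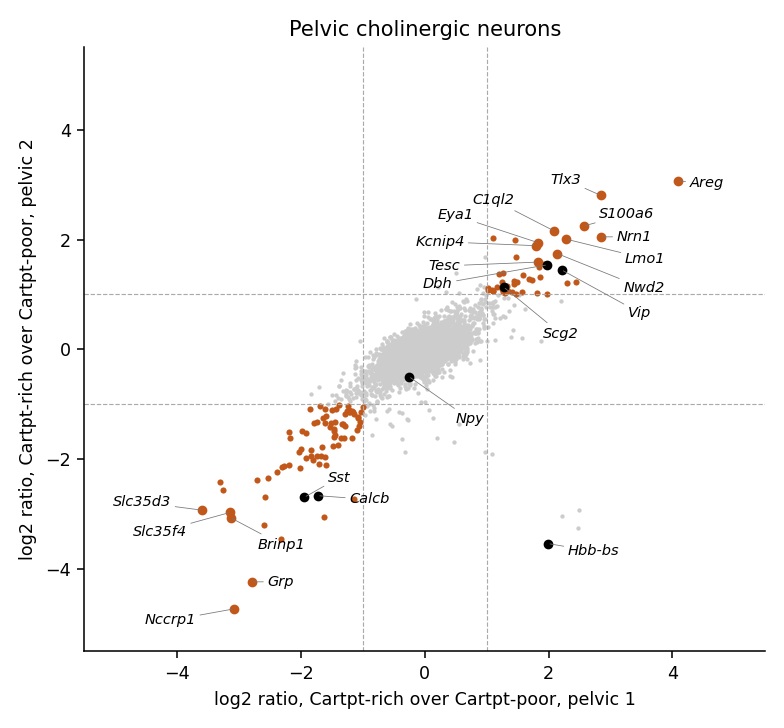
Log2 ratio of *Cartpt*-rich over *Cartpt*-poor pelvic cholinergic neurons for each gene tested, in pelvic replicate 1 (horizontal) and pelvic replicate 2 (vertical), with dashed lines at 2-fold. Orange points pass 2-fold the same way in both libraries (46 higher, 80 lower), larger orange points are the 10 highest and 5 lowest, and black points are other genes named in the text. *Areg* and *Tlx3* stand at the upper right, *Nccrp1* and *Grp* at the lower left, and the haemoglobin gene *Hbb-bs* goes up in one library (1.99) and down in the other (−3.54).

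Among the listed neuropeptides, *Vip* was the one higher in *Cartpt*-rich pelvic neurons. Of 53 peptide genes 8 could be compared, of which 1 was higher in rich neurons and 3 were lower, with a median log2 difference of −0.76 against −0.04 for all genes. Over all 7851 genes compared, 0.586% were higher and 1.02% lower. *Vip* (vasoactive intestinal peptide, a vasodilator and secretomotor peptide of cholinergic neurons) held 3489 CPM in rich against 752 in poor neurons of replicate 1 and 5068 against 1859 in replicate 2, log2 differences of 2.21 and 1.45. The 3 lower peptides were *Sst* (somatostatin, −1.94 and −2.69), *Calcb* (a form of calcitonin gene-related peptide, −1.73 and −2.67) and *Grp*. *Npy* was close in both kinds of neuron, with log2 differences of −0.25 and −0.50.

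Counted neuron by neuron, nearly every *Cartpt*-rich pelvic cholinergic neuron was also rich in *Vip*. At 500 CPM or more, *Vip* was found in 215 of 225 rich neurons (95.6%, Wilson interval 92.0 to 97.6) and in 169 of 534 poor ones (31.6%) in replicate 1, and in 111 of 114 (97.4%) and 115 of 217 (53.0%) in replicate 2. The converse was looser, since only 56.0% and 49.1% of the neurons with that much *Vip* were *Cartpt*-rich. *Npy* reached the same level in 64.9% of rich and 73.4% of poor neurons of replicate 1, and in 66.7% and 67.7% of those of replicate 2. *Sst* did so in 4.44% and 6.14% of rich neurons against 21.7% and 20.3% of poor ones, and *Grp* in 3.51% of rich against 22.6% of poor neurons of replicate 2.

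**Figure D5:**
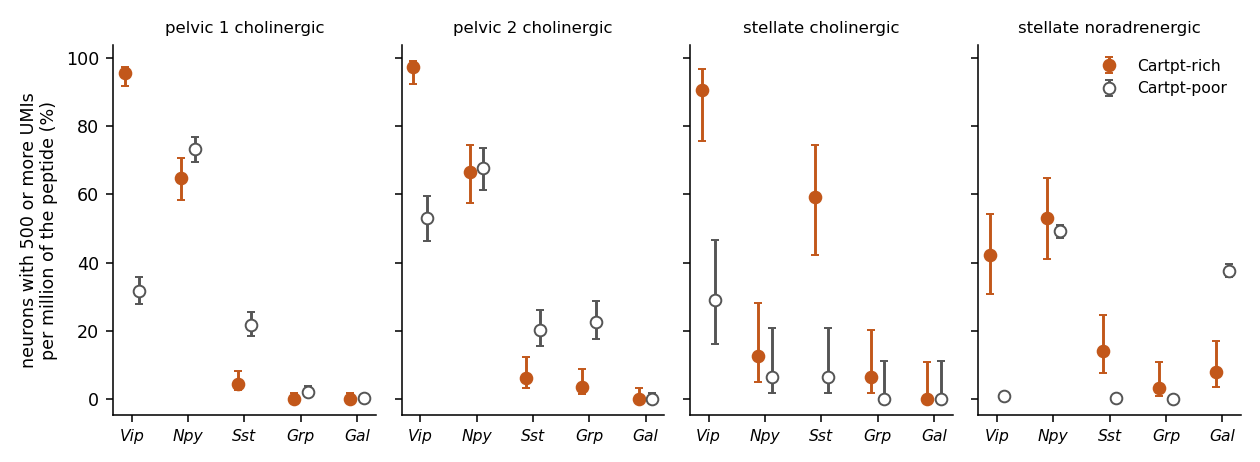
Share of neurons with 500 or more CPM of a second peptide (vertical axis, percent, with 95% Wilson intervals) among *Cartpt*-rich (filled) and *Cartpt*-poor (open) neurons of 4 classes. *Vip* separates them in every panel, *Sst* runs opposite ways in all pelvic cholinergic and in stellate neurons, and the *Npy* intervals overlap in every panel.

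Enzymes and vesicle proteins that handle peptides mostly stayed within 2-fold between rich and poor pelvic neurons. Of 9 measured processing enzymes and helpers, such as *Pcsk1*, *Pcsk2* and *Cpe*, 0 passed 2-fold in either direction, with a median log2 difference of −0.22, where 0.586% of all genes compared were higher and 1.02% lower, so that few calls in so short a list are near the background. Of 5 granins, the acidic proteins of dense-core vesicles, only *Scg2* was higher (1.28 and 1.13), with a median of 0.25. Of 5 cholinergic genes 0 passed (median −0.12), and nitric oxide synthase *Nos1*, the source of neuronal nitric oxide, was close, at 1193 against 1097 CPM and 1214 against 954 CPM. Of 6 noradrenergic genes only *Dbh* was higher (1.98 and 1.54), at 42.5 against 10.0 CPM and 25.8 against 8.21 CPM, far below the 1087 CPM of noradrenergic neurons in replicate 1. The orphan receptor *Gpr160*, proposed as a CART receptor, stayed below 10 CPM in the neurons of every library.

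Since rich neurons lay mostly in the P1-like group, the comparison was repeated inside the coarse P1-like cluster (208 rich and 148 poor neurons, 108 and 87), a choice made after the data were seen. Of 7751 genes, 25 were higher (0.323%) and 13 lower (0.168%), and 14 and 8 of these were shared with the comparison over all cholinergic neurons. Of the 10 highest genes above, 7 still passed 2-fold, among them *Lmo1* (2.54 and 2.32), *Tlx3* (2.20 and 2.30) and *Areg* (2.98 and 2.02). *Lmo1* and *Tlx3* again lay below 10 CPM in poor neurons of both libraries. The 5 lowest did not reach 10 CPM in both libraries here and were not compared. The *Vip* difference was smaller, at 0.65 and 0.43. *Npy*, level over all cholinergic neurons, was at 1.13 and 0.69 here, and *Penk* (proenkephalin, the source of enkephalins) at −1.97 and −2.08, with *Scg2* at 1.13 and 1.14. *Sst*, lower in rich neurons over all cholinergic neurons, was at 81.5 against 57.2 CPM and at 69.2 against 69.8 CPM here. *Nos1* was at −0.60 and −0.29.

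In the stellate ganglion, too, *Vip* was high in *Cartpt*-rich neurons. Over all stellate neurons (96 rich), 144 of 7976 genes were at least 2-fold higher (1.81%) and 202 lower (2.53%), in a single library. The 3 highest were *Vip* (4625 against 26.2 CPM, log2 7.41), *Grp* (456 against 2.95 CPM, log2 6.85) and *Sst* (986 against 15.5 CPM, log2 5.90). Of 11 measured peptides 4 were higher (*Vip*, *Sst*, *Pdyn*, *Grp*) and 4 lower (*Npy*, *Gal*, *Pthlh*, *Adm*). *Pthlh* and *Adm* lay at 7.75 and 2.45 CPM in rich neurons, and so passed the 10 CPM floor only through poor ones. *Grp*, at 2.95 CPM in poor neurons, passed it only through rich neurons. Of 4 cholinergic genes 3 were higher, among them *Slc18a3*, which passed the floor in the same way (3.94 CPM in poor neurons). Of 8 noradrenergic genes 3 were lower (*Th*, *Slc6a2*, *Slc18a2*), and 32 of the 96 rich neurons were of the cholinergic class.

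The stellate classes were therefore also taken apart. Within the cholinergic class (32 rich, 31 poor) 390 of 8233 genes were higher (4.74%) and 298 lower (3.62%), large shares for so few neurons. Of 14 measured peptides 8 were higher and 2 lower, but the 10 CPM floor was taken over rich and poor neurons together. Among the 8, *Tac1*, *Calca*, *Calcb*, *Pyy*, *Pdyn* and *Grp* lay below 10 CPM in poor neurons and passed it only through rich ones. Of the 2 lower, *Adcyap1*, at 7.47 CPM in rich neurons, passed it only through poor ones. In this class *Vip* was at 5706 against 391 CPM and *Sst* at 1321 against 39.6 CPM, while *Npy* was level at 214 against 188 CPM. The cholinergic markers split, with *Slc18a3* at 416 against 119 CPM, *Chat* at 20.2 against 7.03 CPM and *Slc5a7* at 270 against 338 CPM. *Chat*, on 27 against 8 UMIs, also passed the floor only through rich neurons. The noradrenergic markers split too, with *Dbh* at 855 against 309 CPM, *Th* at 290 against 575 CPM and *Slc6a2* at 176 against 223 CPM. Of rich neurons 29 of 32 (90.6%) were *Vip*-rich and 19 of 32 (59.4%) *Sst*-rich, against 9 of 31 (29.0%) and 2 of 31 (6.45%) of poor ones. *Sst* thus went with *Cartpt* in stellate cholinergic neurons and against it over all pelvic ones, though not inside the P1-like cluster.

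In stellate noradrenergic neurons 4 of 11 measured peptides were higher in rich neurons (*Vip*, *Sst*, *Pdyn*, *Grp*), all of them also higher in the cholinergic class, and 4 were lower (*Npy*, *Gal*, *Pthlh*, *Adm*). *Grp*, at 2.88 CPM in poor neurons, again passed the 10 CPM floor only through rich neurons. Of 7953 genes 104 were higher (1.31%) and 253 lower (3.18%), and the 3 highest were *Grp* (log2 7.69), *Vip* (7.26) and *Sst* (5.17). *Vip* passed 500 CPM in 27 of 64 rich neurons (42.2%) and 21 of 2597 poor ones (0.809%), and *Sst* in 14.1% and 0.270%. The *Grp* value rested on 1 neuron with 80.4% of its UMIs, and fell from 798 to 165 CPM without it, whereas *Vip* fell from 3320 to 2538 CPM when its highest neuron was left out. *Npy*, by contrast, was found at 500 CPM in 53.1% of rich and 49.2% of poor neurons, and *Gal* in 7.81% and 37.6%.

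These 64 neurons were shallower and less noradrenergic than the rest. Their median was 12995 UMIs against 26658, their median transmitter balance was 5.19 against 6.89 on the log2 scale, and 5 lay near the class boundary. A doublet score in the top 5% of the library was found in 2 of the 64, beside 152 of the 2597 poor ones, and whether the 64 are droplets of more than 1 cell was not tested. *Slc6a2* was at 516 against 1677 CPM and *Th* at 648 against 1018 CPM in them.

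Outside these classes a high summed *Vip* level did not always go with a high summed *Cartpt* level. The pair was not counted neuron by neuron there. Sphenopalatine cholinergic neurons held 2752 CPM of *Vip* with 24.5 CPM of *Cartpt*, and lumbar cholinergic neurons held 1126 CPM of *Vip* and 787 CPM of *Sst* with 84.5 CPM of *Cartpt*. Lumbar noradrenergic neurons held less of both, at 16.9 CPM of *Vip* and 5.21 CPM of *Cartpt*. The summed level of *Nos1* did not follow that of *Cartpt* either: pelvic cholinergic neurons held 1126 and 1044 CPM and sphenopalatine neurons 1175 CPM, but stellate cholinergic neurons 2.42 CPM.

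Across the 10 transmitter classes with at least 20 neurons, the genes whose level was most like that of *Cartpt* were *Grp* (Pearson r = 0.92), the mitochondrial gene *mt-Atp6* (0.91), *Spsb4* (0.91), *Nrip3* (0.91) and *Chmp4b* (0.90), among 8470 genes on the log2(CPM + 1) scale. *Vip* ranked 263 with r = 0.68, *Chat* had 0.66 and *Sst* 0.65, while *Npy* (−0.13), *Th* (−0.37) and *Gal* (−0.41) were negative. The 10 points share libraries, rounds and depth, 6 libraries in all, so these are descriptions. *Grp* shows how far such a likeness goes: it tracked *Cartpt* between classes, at 97.3 CPM in stellate and 42.8 and 150 CPM in pelvic cholinergic neurons, yet inside the pelvic class it stood in the *Cartpt*-poor neurons. The stellate value leaned on 1 neuron, which held 103 of the 232 *Grp* UMIs of *Cartpt*-rich cholinergic neurons there.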

How the data were processed

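The deposited counts are UMIs per gene and droplet, made by the authors with Cell Ranger 6.0.1 against mm10 as named in the submitters' processing notes, and not normalized. *Cartpt* and all gene lists were chosen with earlier results of these data known. Droplets with more than 1500 and fewer than 11000 genes and under 15% mitochondrial UMIs were kept, as in the study's methods. Counts were normalized with sctransform 0.4.2 (R 4.3.3) only to choose cells: neurons had a mean of neuronal markers above 3 and of glial markers (among them *Ttyh1*, *Fabp7*, *Cryab* and *Mal*) below 1.15, and glia the reverse. The driver of Cre and a further glial marker are not reported here. Levels are UMIs per 1000000 (CPM), summed over a group. Classes were split at 2.25 of log2 (noradrenergic + 25)/(cholinergic + 25) CPM. Clusters used 2000 variable genes, 30 components and igraph 0.11.9 at resolution 0.6, or 0.3 and 1. Simulated doublets were scored but not removed. Intervals are exact Poisson and Wilson (95%, scipy 1.17.1), and a count of 0 allows 3 counts. No test was run: *Cartpt* chose the groups, and only the pelvic ganglion has replicates. Named genes were the listed genes of at least 10 CPM, the 10 highest and 5 lowest by the smaller pelvic log2 ratio, the 3 highest in the stellate library and the 5 most like *Cartpt* by Pearson r. *Wscd1*, *Gpc6*, *Hbb-bs* and the other cluster genes were named after their values were seen. The rule that calls genes in rich against poor neurons was tried on simulated counts. These were drawn per group, without differences between neurons or clusters, so the trial says nothing of such differences. Depth limits low levels: 1 UMI in a median stellate glial cell of 3522 UMIs is already over 200 CPM. GENCODE M21 and RefSeq windows (GRCm38.p6) share the build of the files.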

Additional observations from a re-analysis of the deposited data

Results flagged for a closer look

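One result stood out in droplets that the comparisons above left aside, because its counting interval lay above that of the neurons of the same library. In the coeliac library, 394 droplets that were neither neurons nor glia by their markers held *Cartpt* at 43.0 CPM (95% exact Poisson interval 38.8 to 47.6), against 14.9 CPM in coeliac neurons and 2.99 CPM in coeliac glia. They carried 55.8% of the library's *Cartpt* UMIs, most of them in 12 droplets of 500 CPM or more. Those 12 had neuronal marker means of 1.37 to 2.99, below the limit of 3, and a median of 16825 UMIs. They held the transcription factor genes *Tfap2b* at 965 CPM against 46.1 in the other 382 and *Insm1* at 202 against 6.58 CPM, with *Dbh* at 813 against 65.8 CPM and *Chgb* at 2879 against 144 CPM. The proliferation genes *Top2a* (529 against 99.3 CPM) and *Mki67* (432 against 100 CPM) were also higher, found in 3 and 6 of the 12, while the fibroblast genes *Col1a1* (35.0 against 11056 CPM) and *Dcn* (3.89 against 5540 CPM) were near absent. Their identity was not tested. Droplets outside neurons and glia were also above the glia in the stellate (64.8 against 56.2 CPM), lumbar (11.4 against 5.76 CPM) and pelvic replicate 2 (18.8 against 15.1 CPM) libraries. In the stellate and pelvic replicate 2 libraries the counting intervals of these droplets and of glia overlapped. In the lumbar library neurons held 10.1 CPM, and their interval overlapped that of these droplets.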

How the results depend on the processing

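No paired analysis was possible because no result comes from a test; the cholinergic over noradrenergic ratio was taken within each pelvic library. Of 93 values recomputed under alternatives, 53 moved by less than the spread, counting interval or fold limit set for them, and 40 moved further. Single pelvic replicates were among them. With n = 2 each lies within the SD of the mean whatever its value, so those of the level, the ratio and the clusters could not have moved further. The pelvic level of 919 CPM became 892 with neurons chosen on log counts, 924 with a stricter glial limit, 932 without the highest doublet scores, 843 as a mean over neurons and 785 without the top 1% of neurons. Without that top 1% the stellate level of 149 fell to 67.1 CPM, the sphenopalatine to 18.0, the coeliac to 11.0 and the lumbar to 6.96; the stellate level was 154 without the highest doublet scores. The mean over neurons was 25.7 CPM in the coeliac and 15.7 in the lumbar library, and the choice on log counts gave 22.1 and 11.1. Shares of neurons with *Cartpt* thinned to 4000 UMIs, and with at least 2 UMIs, were 42.4% and 57.9% (pelvic), 11.9% and 18.0% (stellate), 7.55% and 14.2% (sphenopalatine), 5.17% and 13.5% (coeliac), and 3.15% and 6.77% (lumbar). Rich shares at 200 and at 1000 CPM were 38.6% and 21.1% (pelvic), 6.09% and 2.68% (stellate), 2.42% and 0.105% (sphenopalatine), 3.38% and 0.422% (coeliac), and 2.37% and 0% (lumbar). Genes at least 2-fold higher and lower in rich pelvic neurons numbered 11 and 20 among genes of at least 50 CPM, and 93 and 146 among those of at least 1 CPM. They were 60 and 124 without pelvic replicate 1 and 87 and 165 without pelvic replicate 2, since a call then needs 1 library only. At 200 and 1000 CPM they were 54 and 85, and 37 and 79, of which 43 and 66, and 34 and 70, were shared with the counts given. The log2 cholinergic over noradrenergic ratio was positive under every alternative, from 2.39 (replicate 1 alone) to 5.29 (replicate 2 alone). At resolution 0.6 the clusters of replicate 1 alone and of replicate 2 alone held 2210 and 1081 CPM (P1-like), 23.8 and 35.8 (P2-like), 203 and 26.0 (P3-like) and 282 and 94.1 (P4-like). At resolution 1.0 the P1-like name held in replicate 1 only, so no pelvic mean was given. With 1 library per ganglion elsewhere, depth and chemistry limit comparison across rounds.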

Other observations

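*Cartpt*-rich droplets outside neurons and glia were found in the other libraries too, 24 in the stellate, 24 in pelvic replicate 1, 8 in pelvic replicate 2, 2 in the lumbar and 0 in the sphenopalatine library. In pelvic replicate 1 these 24 held *Th* at 557 CPM against 66.1 in the other droplets of the kind, *Dbh* at 997 against 93.3 CPM and *Chgb* at 3440 against 217 CPM, but *Vip* at only 139 CPM, far from the 3489 CPM of *Cartpt*-rich cholinergic neurons there. In the stellate library the 24 droplets held *Vip* at 2651 against 30.8 CPM and *Dbh* at 932 against 340 CPM. These droplets were shallow, with medians of 6380 and 5666 UMIs, and the highest stellate droplet outside neurons and glia held 176 of the 743 *Cartpt* UMIs found in such droplets there.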
